A study of Mus musculus with 9 samples.

Results

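The granule proteases of mouse mast cells were followed at the transcript level through 8 genes, chosen by name from a table of 23951 genes: the tryptases Tpsab1, Tpsb2 and Tpsg1, the tryptase-like Prss34, and Mcpt1, Mcpt2, Mcpt4 and Mcpt8 of the chymase locus. Cpa3 (carboxypeptidase A3) and Cma1 (a chymase), which belong to the same granules, were listed at 0 in all 9 libraries and were left out of the set. Such zeros can be failed estimates, because Eef1a1, a translation factor every cell uses, was also listed at 0 in 3 libraries, those with IgE alone. All libraries came from wild-type C57BL/6 bone marrow cultured into mast cells over 4 to 6 weeks, with interleukin-3 at 10 ng/ml and stem cell factor also at 10 ng/ml. Per the labels, over 95% of the cells were positive for both CD117 and FcER1, the receptor that binds IgE. One group of 3 libraries was untreated. In the next group, also 3 libraries, the cells had been sensitised with anti-DNP IgE (0.5 µg/ml, 18 h). In the last group of 3, the sensitised cells were also stimulated with antigen, albumin carrying DNP, at 50 ng/ml for 2 h. These are cytokine-grown cultures and not tissue mast cells.

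Mast cells store serine proteases in active form in their secretory granules, bound to the proteoglycan serglycin, and release them when antigen cross-links IgE on the surface. Tryptases cut after basic residues and are encoded together on mouse chromosome 17, while chymases, which cut after aromatic residues, are encoded with the granzymes and cathepsin G on chromosome 14. Cultured mouse mast cells hold only part of the protease set of tissue mast cells, and C57BL/6 mice are known to lack the tryptase protein encoded by Tpsab1 because of a splice site defect in that gene.

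Levels are in FPKM (fragments per kilobase of transcript and per M mapped reads; M, mega), a unit per length in which genes can be set side by side. Depth, estimated from the smallest steps of the values, was 20.5 to 39.2 M reads, and between 10190 and 10645 genes reached 1 FPKM. Every antigen library was shallower (20.5 to 28.15 M) than every untreated (29.55 to 33.05 M) and every IgE library (31.35 to 39.2 M). By the median absolute log2 distance from the mean of its group mates, IgE replicate 3 stood apart (0.110, against 0.0479 to 0.0703 in the remaining 8 libraries). By the SD of those differences, antigen replicate 3 did (0.791, against 0.181 to 0.441), in which the X-linked gene Gata1 was listed at 0. The mast cell label was checked against 10 markers: Kit, Fcer1a, Ms4a2 and the other listed markers were present except Cpa3, and their summed level was 14094 to 15059 FPKM in untreated, 13724 to 15629 in IgE and 17702 to 19105 in antigen libraries. With antigen against IgE the markers did not move together: Srgn (serglycin) rose from 5935 ± 452 to 9184 ± 527 FPKM and Hdc, the histamine-forming enzyme, 31.2-fold. Ms4a2, the beta chain of the IgE receptor, fell from 1080 ± 78.5 to 626 ± 11.6 FPKM, while Kit (1.05-fold) and Fcer1a (0.854-fold) did not pass the test. Neutrophil markers summed to at most 3.05 FPKM and lymphocyte markers to at most 1.27 FPKM in any library. Macrophage and monocyte markers summed to 79.2 to 103 FPKM, and erythroid and megakaryocyte markers to 434 to 524 FPKM. In such bulk samples, fewer cells of a type and less RNA per cell cannot be told apart.

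Reads can be assigned to one gene of a family only where its sequence is its own, so the transcripts of the 8 genes were compared first, in GENCODE M21 (build GRCm38; the authors aligned to mm9, and the read length is not given in the sources used here). The coding parts of Tpsab1 and Tpsb2 were 77.5% identical over 825 aligned bases, with a longest identical run of 39 bases, and none of the 50-base windows of either transcript occurred in another gene. The stretches below are the 90 aligned coding bases in which the pair differed most and least, shown because the results turn on telling these genes apart. Capitals mark the bases that differ between Tpsab1 and Tpsb2.
Tpsab1, coding bases 363 to 452: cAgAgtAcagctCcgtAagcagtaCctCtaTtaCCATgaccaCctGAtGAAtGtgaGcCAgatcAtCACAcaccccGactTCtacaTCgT
Tpsb2, coding bases 261 to 350: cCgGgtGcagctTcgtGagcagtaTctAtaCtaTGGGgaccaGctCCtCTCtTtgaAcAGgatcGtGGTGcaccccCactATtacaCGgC
Tpsab1, coding bases 826 to 915: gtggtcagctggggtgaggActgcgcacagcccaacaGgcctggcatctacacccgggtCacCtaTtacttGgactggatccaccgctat
Tpsb2, coding bases 724 to 813: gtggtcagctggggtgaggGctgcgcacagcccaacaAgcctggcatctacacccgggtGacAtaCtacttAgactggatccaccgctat
The first pair differed at 33 of 90 positions and the second at 6 of 90. RefSeq (GRCm38.p6) lists Tpsab1 as a transcribed pseudogene, while GENCODE lists it as protein coding with a shorter coding transcript and a longer one of 1928 bases that keeps an intron. The deposited table has 1 value per gene, so the forms of Tpsab1 are not separated.

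The Mcpt genes of chromosome 14 were closer relatives. The coding parts of Mcpt1 and Mcpt4 were 88.4% identical and those of Mcpt1 and Mcpt2 83.5% identical, whereas Mcpt8 shared 68.8% with Mcpt1. No 50-base window of Mcpt1, Mcpt2, Mcpt8 or Prss34 occurred in another gene. Of the windows of Mcpt4, 5.48% also occurred in Cma2 or Mcpt9, and 9.59% of those of Tpsg1 lay antisense in Cacna1h, the calcium channel gene that overlaps it. Cacna1h was at 1.38 ± 0.154 FPKM in untreated and 2.73 ± 0.0828 FPKM in antigen libraries (SD, n = 3), against 315 to 454 FPKM for Tpsg1 over the 9 libraries.

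In untreated cells the 8 genes spanned levels from 6922 FPKM to 0. Tpsb2, the main soluble tryptase of mouse mast cells, stood at 6729, 6389 and 6922 FPKM and held rank 2 to 4 in the whole table. It made up 93.2% to 93.5% of the summed FPKM of the 8 genes. Tpsg1, a tryptase anchored in the membrane, followed at 317, 315 and 339 FPKM and Prss34, a secreted tryptase-like protease known from basophils and cultured mast cells, at 120, 109 and 132 FPKM. The order of these 3 was the same in every library, with no overlap between them.

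Below them came Mcpt8, a granzyme-like protease used as a basophil marker, at 11.7, 11.9 and 13.5 FPKM. Mcpt2, a chymase-locus protease typical of mucosal mast cells, was at 6.34, 6.78 and 6.06 FPKM, and Mcpt4, the main chymase of connective tissue mast cells, at 6.23, 5.37 and 7.34 FPKM, so these neighbours overlapped. Tpsab1 was at 2.76, 3.32 and 3.53 FPKM, below all of those. Mcpt1, the chymase of intestinal mucosal mast cells, was listed at 0, 0.106 and 0.0315 FPKM, which corresponds to 0 to 3.17 estimated reads.

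**Figure D1:**
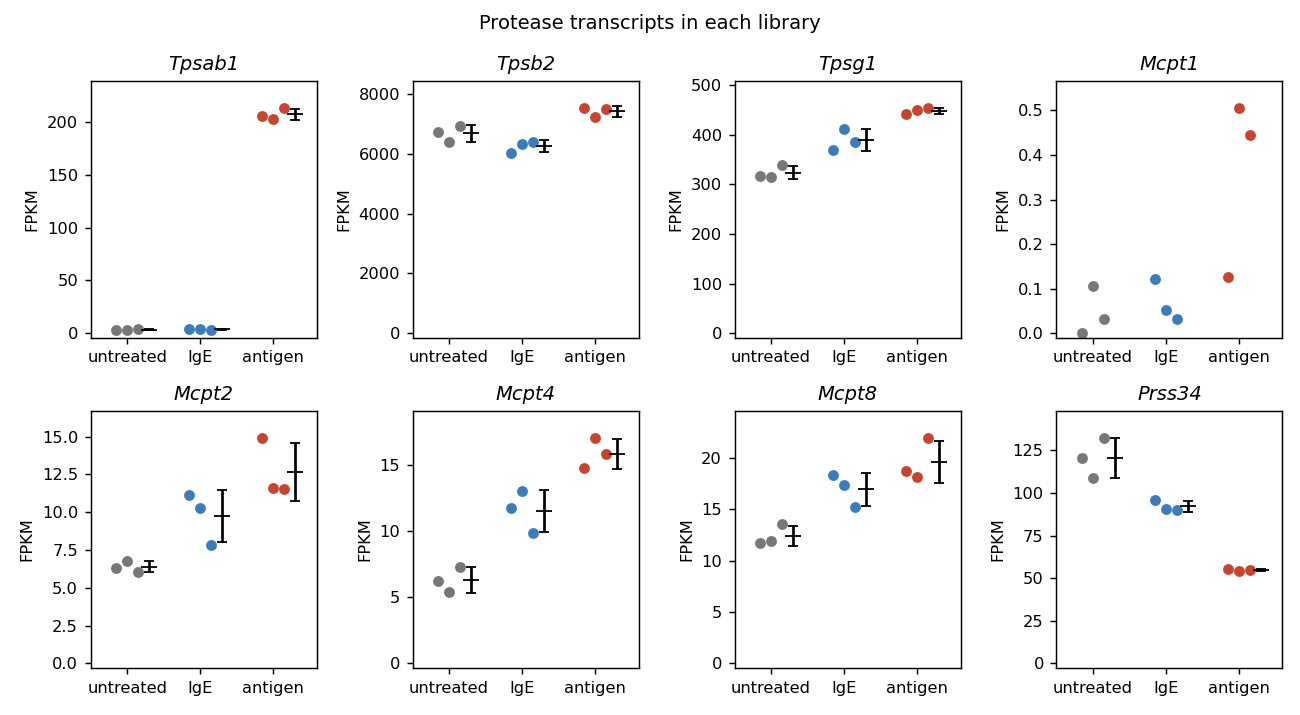
FPKM (linear vertical axes) of the 8 protease genes in each library, with 1 point per library and a bar for the mean ± SD of 3 libraries, drawn for every gene but Mcpt1. Tpsab1 is near 3 FPKM in 6 libraries and at 203 to 213 in the antigen libraries, while Prss34 steps down from 109 to 132 in untreated to 54.1 to 55.3 in antigen libraries.

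Antigen after IgE was compared with IgE alone to ask what receptor cross-linking does to these transcripts within 2 h. Tpsab1 rose 55.0-fold and Prss34 fell to 0.594 times its level, and these were the 2 calls that held in all 20 fits run (the one reported here and its alternatives). Small rises of Tpsb2, Tpsg1, Mcpt2 and Mcpt4, between 1.15-fold and 1.37-fold, passed the test as well, but depended on how the libraries were scaled. Of the 7 proteases tested, 5 rose and 1 fell, beside 36.2% of all 10890 tested genes that rose and 34.9% that fell. Called in either direction were 6 of 7, beside 71.1% of all tested genes, and the libraries of the groups did not overlap for 6 of the 7, beside 74.2%. The call rule was limma's adjusted p under 0.05 on log2(FPKM + 1), a scale that understates the change of low genes. The median log2 change of the 7 was 0.25 and that of all tested genes was -0.01.

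Tpsab1 had 4.05, 3.89 and 3.36 FPKM in the IgE libraries and 206, 203 and 213 FPKM in the antigen libraries. No library of one group came near the other, and replicates within the antigen group varied by a coefficient of variation of 2.58%. In estimated reads, the 6 libraries without antigen held 134 to 235 reads of Tpsab1 and the antigen libraries 6419 to 9263. The log2 change was 5.45 (SE 0.0784), with limma's adjusted p = 6.09e-10, and 5 of the 10890 tested genes had a larger one. Tpsab1 moved from rank 8569 to 9037 in the table in IgE libraries to rank 375 to 412 in antigen libraries.

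Tpsb2, which lies near Tpsab1 on chromosome 17, had 6023, 6337 and 6407 FPKM with IgE and 7531, 7219 and 7510 FPKM with antigen. The groups did not overlap, at 1.19-fold (log2 0.25, SE 0.0711, limma's adjusted p = 0.0133). This call was lost without IgE replicate 1 (log2 0.22, adjusted p = 0.0510) and without antigen replicate 3 (log2 0.24, adjusted p = 0.0700). It was also lost under quantile normalization (log2 0.05, adjusted p = 0.729), with equal summed FPKM (log2 0.07, adjusted p = 0.358) and with no filter on low genes (adjusted p = 0.299). As a share of Tpsb2, Tpsab1 was at 0.0525% to 0.0673% with IgE and 2.73% to 2.84% with antigen. The log2 ratio of Tpsab1 to Tpsb2, with 1 added to each value, was 5.21 higher with antigen, and an exact permutation test (two-sided, n = 3 against 3) gave p = 0.1, the smallest p this design allows.

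Tpsg1 had 369, 412 and 386 FPKM with IgE and 441, 450 and 454 FPKM with antigen. The antigen libraries were all higher and closer together, a 1.15-fold difference (log2 0.20, SE 0.0489, limma's adjusted p = 0.00535) whose sign turned under quantile normalization (log2 -0.15, adjusted p = 0.0272). Cacna1h, the gene antisense to part of Tpsg1, rose by 0.50 on the log2 scale (limma's adjusted p = 0.000420). At 1.63 ± 0.253 and 2.73 ± 0.0828 FPKM (SD, n = 3) with IgE and antigen it stayed far below Tpsg1.

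Prss34 had 95.6, 90.7 and 90.1 FPKM with IgE and 55.3, 54.1 and 54.7 FPKM with antigen. Every antigen library was lower than every IgE library, by -0.74 on the log2 scale (SE 0.0644, limma's adjusted p = 1.28e-05). It was the only one of the 8 to fall. Expressed as a share of Tpsg1, its abundant neighbour among the tryptase genes, Prss34 went from 23.7% ± 1.98 with IgE to 12.2% ± 0.283 with antigen (SD, n = 3). This share fell further than Prss34 itself (0.594-fold), because Tpsg1 was 1.15-fold higher with antigen.

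Mcpt4 had 11.7, 13.1 and 9.90 FPKM with IgE and 14.8, 17.1 and 15.8 FPKM with antigen. The groups were separate, at 1.37-fold (log2 0.43, SE 0.119, limma's adjusted p = 0.0108). Mcpt2 had 11.2, 10.3 and 7.83 FPKM with IgE and 14.9, 11.6 and 11.5 FPKM with antigen, with IgE replicate 3 low and antigen replicate 1 high. Its difference of 1.30-fold (log2 0.35, SE 0.133, limma's adjusted p = 0.0423) passed in 9 of 20 fits, and without IgE replicate 3 it was 0.21 (adjusted p = 0.117), without antigen replicate 1 0.24 (adjusted p = 0.136) and without IgE replicate 2 0.39 (adjusted p = 0.0568). Leaving out any 1 untreated library, which changes only the estimate of the spread, gave Mcpt2 adjusted p-values of 0.0572 to 0.0603.

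Mcpt8 had 18.3, 17.4 and 15.2 FPKM with IgE and 18.7, 18.1 and 21.9 FPKM with antigen. These groups overlapped, and the log2 difference of 0.20 (95% interval -0.02 to 0.41, limma's adjusted p = 0.0905) passed in none of the 20 fits. Mcpt1 had 0.122, 0.0531 and 0.0326 FPKM with IgE and 0.127, 0.505 and 0.444 FPKM with antigen. The lowest antigen library, at 3.15 estimated reads, lay beside the highest IgE library at 4.20, while the other antigen libraries held 10.5 and 12.7. Mcpt1 failed the filter of 1 FPKM in 3 libraries. With no filter its log2 difference on the FPKM + 1 scale was 0.34 (limma's adjusted p = 0.0259).

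**Figure D2:**
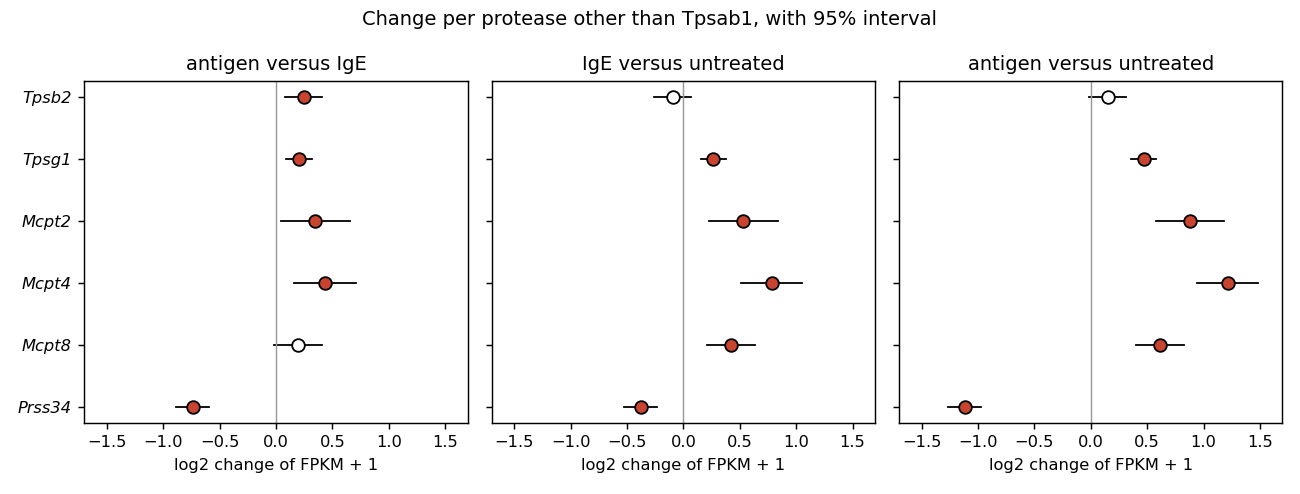
Log2 change of FPKM + 1 (horizontal axis) for the 6 tested proteases other than Tpsab1 in the 3 comparisons. Points are limma estimates over 3 libraries per group, lines are 95% intervals, and filled points passed at adjusted p under 0.05; Prss34 is the only gene left of 0 in all 3 panels, at -0.74, -0.38 and -1.12.

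IgE alone was compared with no treatment to ask what 18 h of sensitisation does without antigen. Mcpt2, Mcpt4, Mcpt8 and Tpsg1 rose moderately, Prss34 fell, and the tryptases Tpsab1 and Tpsb2 did not pass the test. Of the 7 tested proteases 4 rose and 1 fell, beside 14.5% of all tested genes that rose and 13.1% that fell. That made 5 of 7 called, beside 27.5%, and 5 of the 7 had groups that did not overlap, beside 43.2%. Their median log2 change was 0.27, beside -0.01 over all tested genes. The calls of Mcpt4, Mcpt8, Tpsg1 and Prss34 held in all 20 fits.

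Mcpt4 rose 1.83-fold, from 6.31 ± 0.985 to 11.6 ± 1.59 FPKM (SD, n = 3, log2 0.78, SE 0.119, limma's adjusted p = 0.00271). Mcpt2 rose 1.53-fold, from 6.39 ± 0.361 to 9.76 ± 1.73 FPKM (log2 0.53, SE 0.133, limma's adjusted p = 0.0203), a call lost without untreated replicate 1 or 3 or IgE replicate 1 or 2, with log2 changes of 0.44 to 0.53 and adjusted p-values of 0.0620 to 0.0691. Mcpt8 rose 1.37-fold, from 12.4 ± 1.01 to 16.9 ± 1.60 FPKM (log2 0.42, SE 0.0928, limma's adjusted p = 0.0127). For each of these 3 Mcpt genes the 3 IgE libraries were all above the 3 untreated ones, and IgE replicate 3 was the lowest of the IgE libraries.

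Tpsg1 rose 1.20-fold, from 323 ± 13.3 to 389 ± 21.6 FPKM (SD, n = 3, log2 0.27, SE 0.0489, limma's adjusted p = 0.00596). Prss34 went down from 120 ± 11.7 to 92.1 ± 3.05 FPKM (log2 -0.38, SE 0.0644, limma's adjusted p = 0.00425), again with no overlap between the groups. Tpsb2 was at 6680 ± 270 and 6256 ± 205 FPKM, in overlapping groups (log2 -0.09, 95% interval -0.26 to 0.07, limma's adjusted p = 0.365). Tpsab1 was at 3.20 ± 0.398 and 3.77 ± 0.361 FPKM, also overlapping (log2 0.18, limma's adjusted p = 0.119), and passed only without IgE replicate 3 (log2 0.25, adjusted p = 0.0415, where the 20 fits ranged from 0.0415 to 0.326). The log2 ratio of Tpsab1 to Tpsb2 was 0.28 higher with IgE (exact permutation test, two-sided, p = 0.1, the smallest possible with n = 3 against 3). Mcpt1 was listed at 0 to 0.106 FPKM without and 0.0326 to 0.122 FPKM with IgE, in overlapping groups.

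Both steps together were read from antigen against untreated cells, a comparison that shares its libraries with the others and is no independent check of them. Tpsab1 was 64.7-fold higher (log2 5.64, SE 0.0784), Mcpt4 2.52-fold (log2 1.21, SE 0.119), Mcpt2 1.98-fold (log2 0.88, SE 0.133), Mcpt8 1.58-fold (log2 0.62, SE 0.0928) and Tpsg1 1.39-fold (log2 0.47, SE 0.0489), all with limma's adjusted p at or under 0.000375. The Tpsg1 call was lost under quantile normalization (log2 0.02, adjusted p = 0.778). Prss34 was at 0.455 times its untreated level (log2 -1.12, SE 0.0644, limma's adjusted p = 9.52e-07). Tpsb2 was 1.11-fold higher (log2 0.15, 95% interval -0.01 to 0.32), which did not pass (limma's adjusted p = 0.0855) but did with a constant prior (adjusted p = 0.0127). Of the 7 tested, 5 rose and 1 fell, beside 37.2% and 34.4% of all tested genes. The 6 calls stand beside 71.7% of all tested genes, and 7 of the 7 had groups that did not overlap, beside 78.3%.

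Both the total of the protease message and its make-up differed with antigen. Summed over the 8 genes, untreated libraries held 6840 to 7423 FPKM, IgE libraries 6533 to 6919 and antigen libraries 7973 to 8282. As a share of the FPKM of all genes in the table this was 1.35% to 1.53%, 1.30% to 1.43% and 1.39% to 1.49%, ranges that overlap, since the summed FPKM of the table was itself higher with antigen (554415 to 575197, against 483794 to 524935 with IgE). Tpsb2 supplied 90.5% to 90.9% of the 8-gene sum in antigen libraries. Without Tpsb2, the other 7 genes summed to 451 to 501 FPKM untreated, 510 to 548 with IgE and 751 to 771 with antigen. In untreated libraries Tpsab1 was above Mcpt1 alone, and in antigen libraries only Tpsb2 and Tpsg1 were above it, so that it had passed Prss34.

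The order among the Mcpt genes changed less. In antigen libraries Mcpt8 (18.1 to 21.9 FPKM) lay above Mcpt4 (14.8 to 17.1 FPKM) without overlap. Mcpt4 and Mcpt2 (11.5 to 14.9 FPKM) still overlapped. Summed, the 4 Mcpt genes gave 24.1 to 27.0 FPKM in untreated, 32.9 to 41.3 in IgE and 47.3 to 49.7 in antigen libraries.

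**Figure D3:**
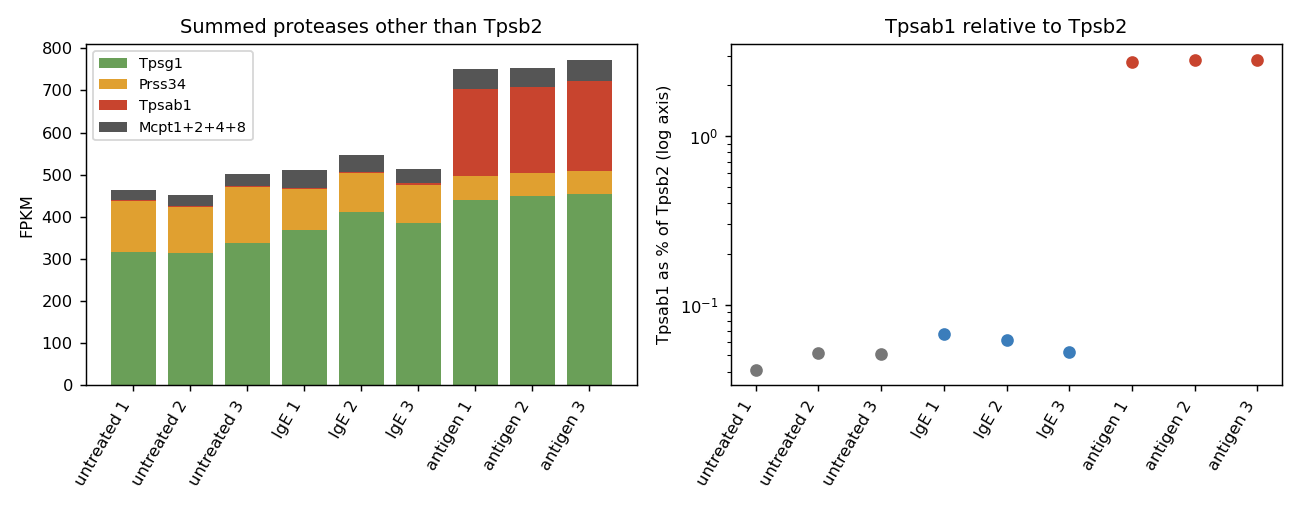
Left, stacked bars of FPKM for the proteases other than Tpsb2 in each of the 9 libraries; right, Tpsab1 as a percentage of Tpsb2 in each library on a log axis. The bars reach 451 to 548 FPKM in the 6 libraries without antigen and 751 to 771 with it, and the points lie at 0.0410% to 0.0673% without and 2.73% to 2.84% with antigen.

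Promoter sequence was available for 5 of the 8 genes, as RefSeq windows of GRCm38.p6. The 250 bases before the start of Mcpt1 and Mcpt4 are shown because these neighbours on chromosome 14 were 86.4% identical there over 242 aligned bases, with an identical run of 53 bases, although Mcpt1 was at or under 0.505 FPKM in every library in which Mcpt4 had 5.37 to 17.1. Prss34 and Tpsg1 are shown as a pair of chromosome 17 that moved in opposite directions with IgE. Mcpt8 is shown as the chromosome 14 gene less alike in sequence, not in position. Capitals mark GATAA or its complement, the core bound by GATA factors.
Mcpt1, chr14:56017714-56017963, plus strand: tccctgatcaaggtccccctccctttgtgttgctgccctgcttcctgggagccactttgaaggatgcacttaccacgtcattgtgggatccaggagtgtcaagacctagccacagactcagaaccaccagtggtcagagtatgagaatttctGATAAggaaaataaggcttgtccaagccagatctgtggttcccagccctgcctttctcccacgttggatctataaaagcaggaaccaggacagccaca
Mcpt4, chr14:56062311-56062560, minus strand: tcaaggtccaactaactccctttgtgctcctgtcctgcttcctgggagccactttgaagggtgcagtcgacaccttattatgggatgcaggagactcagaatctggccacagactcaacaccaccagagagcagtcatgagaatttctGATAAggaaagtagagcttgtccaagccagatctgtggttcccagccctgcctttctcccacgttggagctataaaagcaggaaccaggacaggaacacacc
Mcpt8, chr14:56085198-56085447, minus strand: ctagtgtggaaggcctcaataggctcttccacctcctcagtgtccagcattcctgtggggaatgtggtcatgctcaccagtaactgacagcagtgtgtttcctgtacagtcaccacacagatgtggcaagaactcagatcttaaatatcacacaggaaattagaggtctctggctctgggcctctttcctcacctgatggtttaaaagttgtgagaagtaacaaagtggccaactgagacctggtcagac
Prss34, chr17:25298144-25298393, plus strand: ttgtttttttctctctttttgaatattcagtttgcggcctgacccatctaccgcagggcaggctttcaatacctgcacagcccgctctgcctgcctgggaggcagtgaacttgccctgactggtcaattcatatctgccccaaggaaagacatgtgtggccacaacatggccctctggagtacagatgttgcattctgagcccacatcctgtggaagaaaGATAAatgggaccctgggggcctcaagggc
Tpsg1, chr17:25369023-25369272, plus strand: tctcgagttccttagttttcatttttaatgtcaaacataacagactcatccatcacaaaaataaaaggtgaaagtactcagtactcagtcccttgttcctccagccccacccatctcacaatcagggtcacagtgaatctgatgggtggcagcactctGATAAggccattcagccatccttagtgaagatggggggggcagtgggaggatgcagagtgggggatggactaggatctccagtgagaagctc
GATAA was found once in each window except that of Mcpt8, which held none, and 22.6% of 32851 promoter windows of this length held it on either strand. In Mcpt1 and Mcpt4 it was followed directly by GGAAA, the core bound by NFAT factors (in 55.6% of all windows, also in Mcpt8 at 3 places and in Prss34 once), and TATAAA, the TATA box (in 12.4%), lay further towards the start in both. TGTGGT, the Runx core (in 14.0%), was in Mcpt1 and Mcpt4 once each and in Mcpt8 at 2 places. The E-box CANNTG (in 66.2%) was in Mcpt8 at 3 places and in Prss34 at 2. TGACG, part of the CRE (in 17.8%), was in Mcpt1 only. TGANTCA (AP-1, in 6.75%) and GCGTGGG (EGR, in 4.30%) were in none of the 5 windows, and neither was the NF-kB motif (in 17.6%). Both strands were searched, the matches named here were not filtered for overlap with one another, and a match describes letters only. Because the windows of Mcpt1 and Mcpt4 are so alike, the matches they share are not separate observations. The 5 windows were those available, and no motif was tested against its share of all windows.

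The loci of the 8 genes were described from lists that hold them and their neighbours. At the tryptase locus, the 9 listed genes outside the set, among them Prss28, Prss29 and Prss33, reached at most 0.173 FPKM in any library and 3 of them were listed at 0 throughout. At the chymase locus, 8 of 16 listed genes were tested, among them Mcpt2, Mcpt4 and Mcpt8. With antigen against IgE 6 of the 8 rose and 0 fell, beside 36.2% and 34.9% of all tested genes, with a median log2 change of 0.55 in the list, beside -0.01 for all tested genes. With IgE against untreated 7 rose and 0 fell, beside 14.5% and 13.1% of all tested genes, with a median of 0.50 beside -0.01. Of the 5 tested genes of this list outside the 8 proteases, 4 rose with antigen and 4 with IgE.

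Among these, Gzmb (granzyme B) was the most abundant, at 1158 ± 40.0, 1585 ± 68.0 and 2643 ± 66.1 FPKM in untreated, IgE and antigen libraries (SD, n = 3). Ctsg (cathepsin G) rose by 0.84 with IgE and a further 0.66 with antigen on the log2 scale, and Gzmc (granzyme C) by 1.98 with antigen (limma's adjusted p = 0.000246, 2.79e-05 and 1.98e-07). Mcpt-ps1, a transcribed pseudogene of the Mcpt family, went from 16.2 ± 2.47 to 25.7 ± 1.04 and 52.0 ± 5.76 FPKM (SD, n = 3), which was 2.02-fold with antigen over IgE (log2 0.98, limma's adjusted p = 5.89e-05). Cma2, named here because it shares windows with Mcpt4, had 7.98 ± 0.340, 11.6 ± 1.90 and 12.3 ± 1.61 FPKM. It rose with IgE (log2 0.48, limma's adjusted p = 0.0196), while its difference of 0.08 with antigen over IgE did not pass (adjusted p = 0.557).

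**Figure D4:**
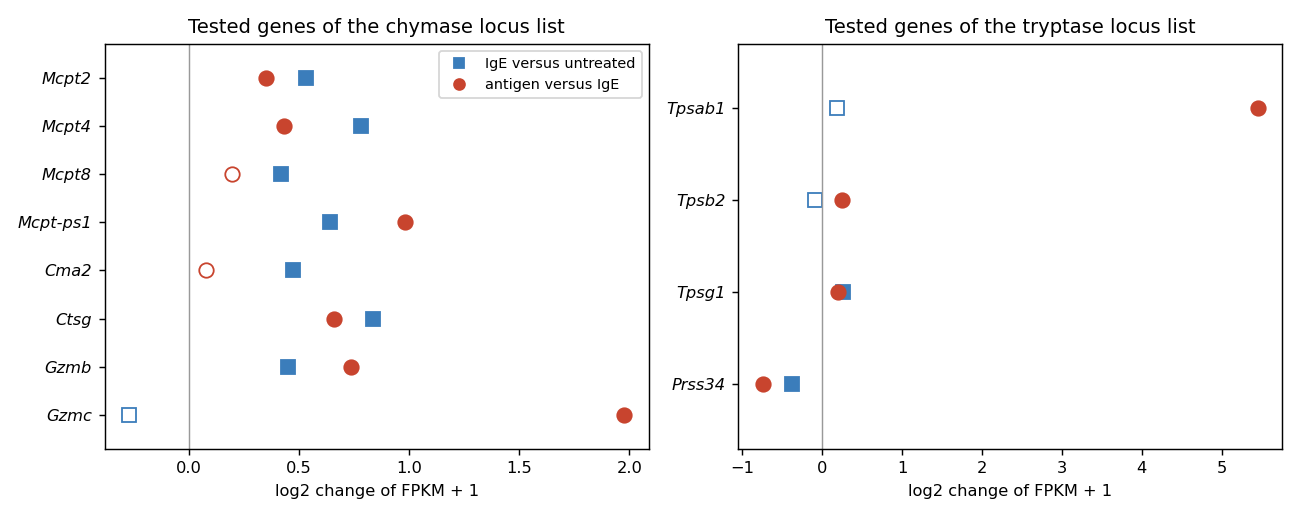
Log2 change of FPKM + 1 (horizontal axis) of the tested genes of the chymase locus (left) and the tryptase locus (right), as squares for IgE against untreated and circles for antigen against IgE; filled symbols passed at adjusted p under 0.05. Of the 8 chymase locus genes, 7 rose with IgE and 6 with antigen, while Tpsab1 stands at 5.45 for antigen against IgE.

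Of 18 tested genes of protease maturation and granule storage, 8 rose and 6 fell with antigen against IgE, shares near the 36.2% and 34.9% of all tested genes, with a median log2 change of -0.01. Ext1, a heparan sulfate polymerase, rose from 3.63 ± 0.114 to 7.78 ± 0.0696 FPKM and Ctsb (cathepsin B) from 44.7 ± 1.24 to 62.2 ± 0.507 FPKM. Ndst2, the sulfotransferase that mast cells need to make heparin, fell from 139 ± 8.85 to 74.3 ± 2.08 FPKM and Hs2st1, another heparin sulfotransferase, from 11.3 ± 0.141 to 7.86 ± 0.218 FPKM. Ctsc, which removes the propeptide of granule serine proteases, was picked out after its values were seen. It rose from 107 ± 6.60 to 174 ± 4.77 FPKM (SD, n = 3, log2 0.69, limma's adjusted p = 6.99e-06).

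Of 15 tested protease inhibitors, 8 rose and 4 fell with antigen against IgE, beside 36.2% and 34.9% of all tested genes, with a median log2 change of 0.20. Serpinb6a and Serpinb6b, intracellular serpins, rose to 304 ± 8.10 and 3.24 ± 0.249 FPKM. Serpina3g fell from 49.8 ± 1.45 to 20.5 ± 1.15 FPKM (SD, n = 3, log2 -1.24, limma's adjusted p = 2.96e-07).

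Of 18 tested transcription factors of mast cells and their progenitors, 11 rose and 3 fell with antigen against IgE, beside 36.2% and 34.9% of all tested genes, with a median log2 change of 0.53. Runx2 rose from 0.624 ± 0.177 to 8.57 ± 0.673 FPKM, Stat5a from 32.6 ± 1.69 to 74.6 ± 0.903 and Tal1 from 102 ± 3.28 to 184 ± 2.19, and Lmo2 fell from 24.8 ± 0.201 to 12.7 ± 0.296 FPKM. Gata1, which is X-linked, had 57.9 and 56.0 FPKM in antigen replicates 1 and 2 and was listed at 0 in antigen replicate 3, so no fold is given. The 8 proteases lie on chromosomes 14 and 17, but whether values of 0 in antigen replicate 3 go with the chromosome was not tested.

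Markers of cell types that use these proteases were set beside them. The 5 basophil markers, which include Mcpt8 and Prss34, summed to 695 to 748 FPKM in untreated, 596 to 681 in IgE and 882 to 925 in antigen libraries. Most of that sum was Cd200r3 and Cd200r4, activating receptors, which rose with antigen against IgE from 344 ± 23.4 to 492 ± 10.5 and from 189 ± 15.8 to 340 ± 11.2 FPKM, while Prss34 fell. Itga2, an integrin subunit of the list, was at 0.677 ± 0.0292 and 0.245 ± 0.0382 FPKM. Of the connective tissue markers, Mrgprb2, a mast cell receptor for basic secretagogues, fell from 130 ± 14.5 to 81.1 ± 8.67 FPKM with antigen, and Mrgprb1 rose from 33.5 ± 2.77 to 42.1 ± 2.87 FPKM (SD, n = 3). The part of such cells in the protease values was not tested.

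The genes whose course over the 9 libraries was most like that of each of the 7 tested proteases were found by the root mean square difference of centred log2(FPKM + 1) values, as a description. Those nearest to Tpsab1 were Egr2, a transcription factor (0.166), Ccl4, a chemokine (0.218), and Gadd45b, a stress response gene (0.222), which had mean levels of 52.0, 496 and 148 FPKM in antigen libraries. Nearest to Prss34 were Gng2 (0.0629), Frmd4b (0.0666) and Ccnj (0.0679). Lgals1 (0.140) was nearest to Mcpt4, Cycs (0.113) to Mcpt2, Cdr2 (0.0837) to Mcpt8, Cdk2ap2 (0.0296) to Tpsg1 and 4933427D14Rik (0.0288) to Tpsb2. None of these 7 was among the 3 nearest genes of another.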

How the data were processed

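RNA sequencing values of 9 libraries were used as deposited by the authors, in FPKM, with 1 column per library matched by name to its sample. The reads had been aligned to mm9 (TopHat2 2.0.12, Bowtie 0.12.7), per the submitters' processing notes. How FPKM was computed, on which annotation and with or without strand is not given in the sources used here, so sense and antisense reads may not be separated. The 10890 genes that reached 1 FPKM in 3 or more libraries were fitted on log2(FPKM + 1) by limma (version 3.58.1, R 4.3.3), with a mean for each group, a trended prior, all 9 libraries and no covariate. P-values were two-sided and adjusted by the Benjamini-Hochberg method over all tested genes. Of the 8 proteases 7 were tested, each of them above 1 FPKM in all 9 libraries. No label says that replicates were separate cultures, so the p-values measure the spread between these libraries, which may be technical. No column was a copy of another in its group: at most 0.138% of tested genes had identical values in a pair. Equal values reveal a copied column only, so this cannot tell whether 1 RNA was sequenced more than once. Errors are SD over n = 3 unless given as SE, and plain folds are ratios of mean FPKM.

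The proteases and lists were chosen with earlier results of these data known. Named list genes are up to 4 called members with the smallest adjusted p in antigen versus IgE. One gene that this rule names is not reported here. Depth was estimated from FPKM times length over 2966 genes with a single GENCODE M21 transcript above 1000 bases, where 59.3% to 72.5% of the low values fell within 0.1 of a whole read. Estimated reads of a protease use the median length of its transcripts and cover counting error only. Sequences were aligned with Biopython 1.88, and shared windows were exact 50-base matches on either strand to any M21 transcript of another gene. Files differ from that reference in build, so coordinates are given for the reference sequences only. The fit was also run on simulated data with independent normal noise and few changed genes. In the real data 71.1% of tested genes were called for antigen versus IgE, so that run does not check these calls.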

Additional observations from a re-analysis of the deposited data

How the results depend on the processing

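Alternatives covered the pseudocount, the filter, the scaling, the prior, the libraries in the fit, a replicate block and each library left out. Scaling every library to equal summed FPKM, chosen after seeing the data, left 2 called proteases for antigen versus IgE instead of 6 (Tpsab1 at 5.29 and Prss34 at -0.91). It moved the median of all tested genes to -0.16 and the share of rises among called genes from 50.9% to 34.0% (and from 52.0% to 34.0% for antigen versus untreated). For antigen versus IgE, Tpsb2, Tpsg1, Mcpt2 and Mcpt4 then had log2 changes of 0.07, 0.03, 0.19 and 0.27. Limma's adjusted p-values for these changes were 0.358, 0.580, 0.188 and 0.0521. Relative to the median of -0.16 the same genes were at 0.24, 0.19, 0.35 and 0.43, which was not tested. Quantile normalization turned Tpsg1 for antigen versus IgE to -0.15 and Tpsb2 for antigen versus untreated to -0.21, and equal sums turned Tpsb2 for antigen versus untreated to -0.048; the cause was not tested. Without each library in turn, the proteases called were 5 to 6 for antigen versus IgE, 4 to 6 for IgE versus untreated and 6 to 6 for antigen versus untreated, and the log2 ratio of Tpsab1 to Tpsb2 differed by 5.13 to 5.28, 0.19 to 0.36 and 5.40 to 5.54. Over all genes, IgE versus untreated had 2999 calls, and 1914 without untreated replicate 1.

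Whether the replicate numbers pair the libraries is not known. Same-numbered libraries had deviations from their group means that correlated by -0.153 to 0.350, and differently numbered ones by -0.349 to 0.244. Deviations from a mean of 3 libraries depend on one another, so these values cannot decide it. With the replicate number as a block, 6, 5 and 6 proteases were called, as without it, and 7553, 2500 and 7620 of all genes. Depth limits Mcpt1 most, with at most 12.7 estimated reads.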
